A study of Mus musculus with 20 samples.

Results

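Expression of the interleukin-6 (IL-6) family of cytokines and of the STAT3 pathway they act through was followed in primary mouse embryonic fibroblasts (MEFs) with and without E2F4, a transcription factor that represses cell cycle genes in resting cells. The 9 genes described were the cytokines Il6 and Lif, the receptor chains Il6st, Osmr and Lifr, the kinase Jak1, the transcription factor Stat3, and Socs3 and Pim1, which STAT3 is known to induce. They were taken by symbol, with every array probe set that lists only that symbol, which gave 22 probe sets of 20380 and 9 genes of 12393. The genes were selected on the measured genotype contrast, with Stat3 known to be lower in the null cultures, so all values by genotype are given as a description with no test. Differences between embryos of the same genotype were a different contrast and were tested. For Stat3 they are not independent of the choice, because a gene that separates genotypes across cultures tends to vary little within them.

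The wild type MEFs came from 3 embryos grown as 10 cultures, with 3 cultures each of embryos 1 and 2 and 4 cultures of embryo 3. The E2F4 null MEFs came from 5 embryos with 2 cultures each, which also made 10 cultures. All were primary cells from embryos at 13.5 days post coitum, and the labels name no treatment, strain or form of the null allele. Each culture was hybridised to an Affymetrix array, and each value is a MAS5 signal on a linear scale. The embryo was the replicate for genotype, and cultures of an embryo were averaged before genotypes were compared. The labels do not say how cultures of an embryo were separated, so tests over cultures measure the spread between these cultures, which may be technical.

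Cytokines of the IL-6 family share the receptor chain gp130, the product of Il6st. LIF signals through gp130 paired with the LIF receptor, and oncostatin M through gp130 paired with its own receptor chain, the product of Osmr. Receptor-bound Janus kinases such as JAK1 then phosphorylate STAT3, which moves to the nucleus and induces its targets, and SOCS3 binds gp130 and JAKs and shuts the signal down. The arrays measured messenger RNA only, and neither STAT3 phosphorylation nor secreted cytokine was measured.

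Short promoter stretches are shown for the ligands, Jak1 and Socs3, the genes that held a match to a site form named below. Sequences are from RefSeq on GRCm38.p6. A window of 250 bases before the start was searched on both strands in all 9 genes (11 windows), and 30 bases around each match are printed 5′ to 3′ on the gene's strand, with the match in capitals.
Socs3, chr11:117969501-117969530, minus strand: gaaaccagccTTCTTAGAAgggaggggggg
Il6, chr5:30013060-30013089, plus strand: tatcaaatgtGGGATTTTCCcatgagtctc
Il6, chr5:30012864-30012893, plus strand: cTGAGTCActtttaaagaaaaaaaagaaga
Lif, chr11:4257329-4257358, plus strand: ccagtcagctgTGACTCAggccatagtggc
Jak1, chr4:101265306-101265335, minus strand: ggagcagcttcTGACGTCAcgggggctggg
The capitals in Socs3 match TTCNNNGAA, the form of site that STAT factors bind, which occurred in 7.02% of 32851 promoter windows. Il6 holds a match to the NF-kappaB form of site (0.356% of windows). Il6 and Lif each hold the AP-1 form TGANTCA (6.75%), and Jak1 holds the CREB form TGACGTCA (1.55%). The E2F octamers TTTCCCGC, TTTGGCGC, TTTCGCGC and TTTGCCGC were in 1.86% of windows and in 0 of the 11 windows searched here. Of the 9 genes, 5 had no match to any of these letters, and a match is a description of the sequence and not a shown binding site.

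The arrays were scaled alike, with a trimmed mean signal of 500.2 on each and medians between 135 and 146. Correlations over the genes kept ran from 0.988 to 0.994 between cultures of an embryo and from 0.950 to 0.991 between embryos, and 20 of 20 cultures lay closest to a culture of their own embryo. The targeted gene, E2f4, read 214 ± 6.47 (SD, n = 3 embryos) in wild type and 166 ± 17.6 (SD, n = 5) in the null, with no overlap between embryos. Its log2 difference was -0.35 (SE 0.10, limma adjusted p = 0.363), and the files do not say whether its probe set lies in the deleted part. The 18S control signal reached 4572 in culture 1 of wild type embryo 2 and ran from 96.1 to 769 in the other 9 wild type cultures, beside 60.3 to 168 in the null cultures (medians 404 and 103), and its part in the genotype values was not tested. All 11 fibroblast markers were above the low-signal filter, 0 of 6 endothelial markers were (signals from 1.99 to 47.6), and 2 of 6 epithelial and 8 of 10 macrophage markers were.

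Stat3 signal was lower in every null culture than in every wild type culture on the brightest of its 3 probe sets. It read 2214, 1801 and 2252 in wild type embryos 1, 2 and 3. It read 1532, 1560, 1579, 1532 and 1612 in null embryos 1 to 5. The 10 null cultures had a lowest, median and highest signal of 1468, 1560 and 1691, and the 10 wild type cultures of 1719, 2173 and 2452, so the groups did not overlap, and wild type embryo 2 came nearest to the null. The means were 2089 ± 250 (SD, n = 3) and 1563 ± 33.8 (SD, n = 5), a log2 difference of -0.41 (SE 0.08). Stat3 was 1 of 8 member genes above the filter whose embryos did not overlap, where 3.71% of all 7436 genes kept were lower and 2.95% higher in the null without overlap.

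The other Stat3 probe sets did not separate the genotypes. The second brightest read 940, 643 and 1018 in wild type embryos and 735, 648, 744, 848 and 856 in null embryos. Here wild type embryo 2 was the lowest of all 8 embryos, while wild type embryos 1 and 3 were the highest, and the log2 difference was -0.16 (SE 0.15). The third was under the filter at 49.0 ± 4.92 (SD, n = 3) and 51.8 ± 10.0 (SD, n = 5), a difference of 0.04 (SE 0.14). Of 22 member probe sets, 1 was lower in the null without overlap, beside 2.68% of all probe sets. The files do not say which Stat3 transcripts each probe set reads.

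**Figure D1:**
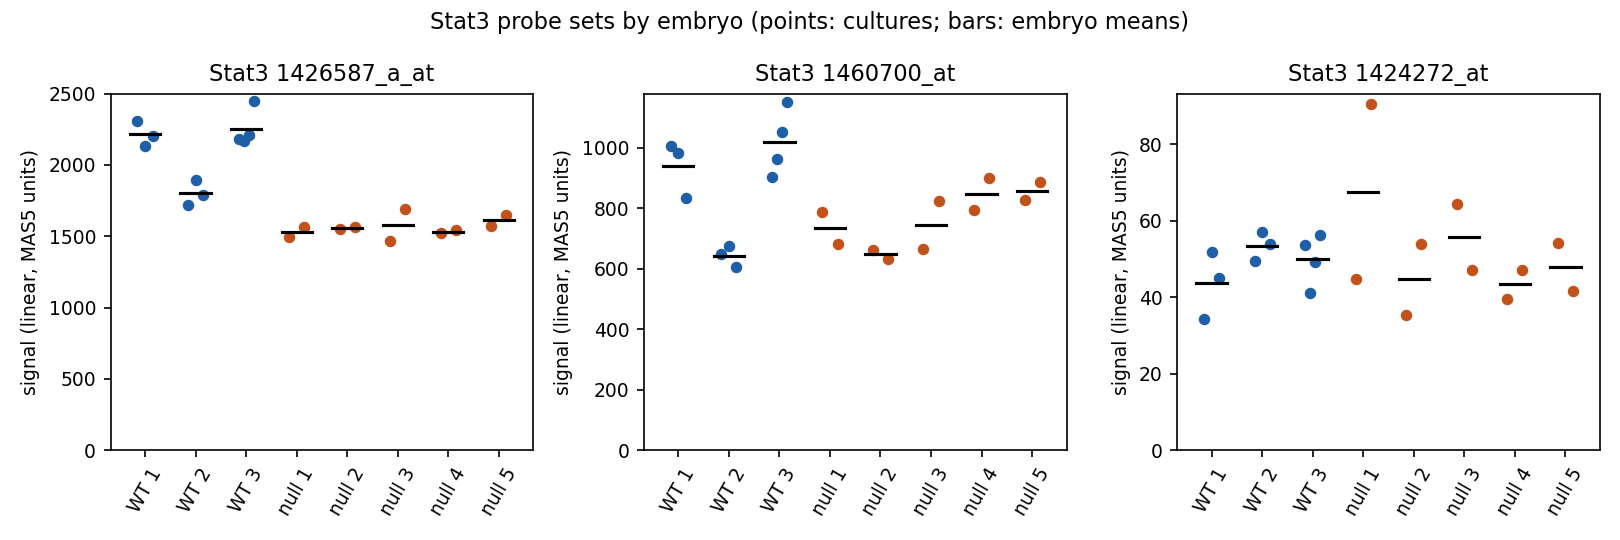
Signal (linear MAS5 units, vertical axis from 0) of the 3 Stat3 probe sets by embryo, with points for cultures and bars for embryo means, wild type in blue and E2F4 null in orange. All null cultures lie below all wild type cultures on the brightest probe set (left), with highest null 1691 and lowest wild type 1719, and the groups overlap on the other probe sets.

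Among null embryos Stat3 hardly varied on its brightest probe set. There its embryo means spanned 0.07 log2 units, the standard deviation of the embryo means was 0.03 beside 0.07 between cultures of an embryo, and the F test of embryo gave an adjusted p of 0.903 (limma, Benjamini-Hochberg over 7436 genes). On the second probe set null embryos spanned 0.39 log2 units (adjusted p = 0.106 with every probe set tested). Wild type embryos spanned 0.32 log2 units on the brightest probe set (1.25-fold), with an adjusted p of 0.00081, and embryo 2 was the lowest. Without wild type embryo 2 that adjusted p was 0.848 and the genotype difference was -0.51, and without wild type embryo 3 the genotype difference was -0.35. Whether wild type embryos vary more in Stat3 than null embryos was not tested, and the small null spread is not independent of the choice of Stat3.

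Lif, the cytokine that keeps mouse embryonic stem cells undifferentiated, was lowest in 3 of the 5 null embryos, with null embryo 2 between these and wild type. Its brighter probe set read 193, 186 and 171 in wild type embryos 1 to 3 and 170, 147, 89.2, 85.9 and 88.9 in null embryos 1 to 5. Null embryo 1 lay beside wild type embryo 3, null embryo 2 came next, and null embryos 3, 4 and 5 formed a low set. Of 10 null cultures, 6 were below the lowest wild type culture. The means were 184 ± 11.2 (SD, n = 3) and 116 ± 39.3 (SD, n = 5), a log2 difference of -0.64 (SE 0.22).

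The difference in Lif among null embryos was larger than the spread between cultures. It spanned 0.87 log2 units (1.83-fold, adjusted p = 0.00468), with a standard deviation of 0.41 between embryo means and 0.14 between cultures of an embryo. Wild type embryos spanned 0.18 log2 units (adjusted p = 0.543), with a standard deviation of 0.09 between embryo means and 0.22 between cultures of an embryo. Without null embryo 1 the adjusted p among the remaining null embryos was 0.05003, just above the threshold of 0.05. Its second probe set was under the filter at 30.6 ± 7.24 (SD, n = 3) and 17.0 ± 11.5 (SD, n = 5), and its lowest embryos were also null 3, 4 and 5.

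A list of 11 early response genes, which rise quickly after serum or stress and include Egr1 and Dusp1, was low in the same null embryos as Lif. Its mean deviation from the 8-embryo mean was -0.21, -0.30 and -0.31 log2 units in null embryos 3, 4 and 5, beside 0.06 and -0.04 in null embryos 1 and 2. In wild type embryos 1 and 3 it was 0.56 and 0.25, and in wild type embryo 2 it was -0.003. Null embryos 3, 4 and 5 were the lowest 3 of 8 for 7 of these 11 genes and for 6.51% of all genes. The part of this state in the Lif difference was not tested.

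Il6, the founding cytokine of the family and a product of activated fibroblasts, was dim, below the array medians of 135 to 146. Its single probe set read 98.8, 70.9 and 72.5 in wild type embryos and 60.9, 76.0, 58.2, 45.2 and 73.7 in null embryos. The groups overlapped, with null 2 and null 5 above wild type 2 and wild type 3. The means were 80.7 ± 15.7 (SD, n = 3) and 62.8 ± 12.5 (SD, n = 5), a log2 difference of -0.30 (SE 0.17). Il6 did not pass the filter, and with no filter its F tests between embryos gave adjusted p = 0.128 in wild type and 0.387 in the null.

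**Figure D2:**
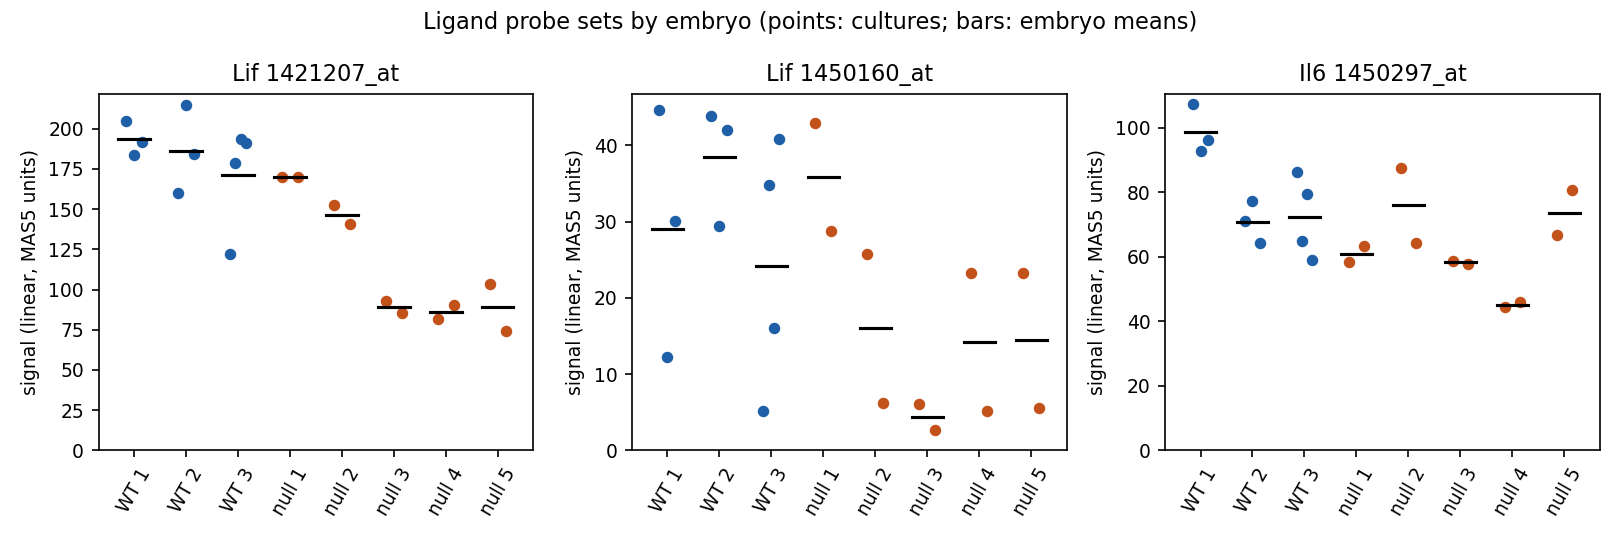
Signal (linear MAS5 units, vertical axis from 0) of the Lif and Il6 probe sets by embryo, with points for cultures and bars for embryo means, wild type in blue and E2F4 null in orange. On the brighter Lif probe set (left) null embryos 3, 4 and 5 lie at 85.9 to 89.2 and null embryo 1 at 170, beside wild type embryo 3 at 171; Il6 overlaps between genotypes.

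The receptor chains spanned more between embryos inside each genotype than between the genotype means. Without wild type embryo 2 this no longer held for Osmr in either genotype or for Lifr in wild type, and it still held for Lifr in the null. Il6st, which encodes gp130, read 1514, 1106 and 1976 in wild type embryos 1 to 3 on the brightest of its 3 probe sets. In null embryos 1 to 5 it read 1181, 1327, 1520, 1529 and 1563. The genotype means were 1532 ± 435 (SD, n = 3) and 1424 ± 164 (SD, n = 5), a log2 difference of -0.07 (SE 0.17), and wild type embryos 2 and 3 lay outside the null range on either side. Its other probe sets differed by -0.02 and -0.03.

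Osmr, the chain for oncostatin M, read 1995, 1178 and 2117 in wild type embryos on the brighter of its probe sets and 1128, 1298, 1577, 1452 and 1576 in null embryos. Wild type embryos 1 and 3 stood above all null embryos, and wild type embryo 2 lay between null 1 and null 2. Of 10 wild type cultures, 7 were above the highest null culture. The log2 difference was -0.29 (SE 0.19), and on the second probe set it was -0.24 (SE 0.16). Without wild type embryo 2 the difference on the first probe set was -0.55, and without wild type embryo 3 it was -0.13. Without wild type embryo 2 the wild type span of Osmr was 0.086 log2 units.

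Lifr, the chain for LIF, which lies next to Osmr on chromosome 15, read 252, 112 and 291 in wild type embryos on its brightest probe set and 132, 109, 286, 218 and 299 in null embryos. Embryos of both genotypes fell at each end, and the log2 difference was -0.06 (SE 0.38). Without wild type embryo 2 that difference was -0.45 and the wild type span was 0.19, and without wild type embryo 3 the difference was 0.18. Its 2 further probe sets were under the filter and differed by 0.11 and 0.06.

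Jak1, the main kinase on gp130 receptors, read 1995, 1656 and 2224 in wild type embryos on the brightest of 3 probe sets. In null embryos it read 1582, 1702, 1920, 2178 and 2020, an overlap over nearly the whole range, with a log2 difference of -0.06 (SE 0.12). Its other probe sets differed by -0.03 and -0.05.

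Socs3, the feedback inhibitor induced by STAT3, had the widest span between wild type embryos of the 8 genes tested. Its brightest probe set read 698, 244 and 885 in wild type embryos 1 to 3 and 352, 323, 620, 452 and 610 in null embryos 1 to 5. Wild type embryo 2 was the lowest of all 8 and wild type embryo 3 the highest, so that the null embryos lay inside the wild type range. The means were 609 ± 330 (SD, n = 3) and 472 ± 140 (SD, n = 5), a log2 difference of -0.22 (SE 0.39). That difference was -0.76 without wild type embryo 2 and 0.13 without wild type embryo 3, so the sign rested on wild type embryo 3. The other Socs3 probe sets gave -0.16 and -0.14, and also had wild type 2, null 1 and null 2 as their lowest embryos.

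Pim1, a serine/threonine kinase and another STAT3 target, read 219, 216 and 211 in wild type embryos on its brighter probe set. In null embryos it read 263, 221, 190, 214 and 168, on both sides of wild type, with a log2 difference of -0.04 (SE 0.13). Its second probe set was under the filter, at 66.8 ± 8.43 (SD, n = 3) and 78.2 ± 17.0 (SD, n = 5).

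Differences between embryos of a genotype were tested over cultures with limma's F test, adjusted over all 7436 genes. In wild type, 6 of 8 member genes passed (Stat3, Socs3, Il6st, Osmr, Lifr and Jak1), beside 50.1% of all genes. In the null, 6 of 8 passed (Socs3, Lif, Il6st, Osmr, Lifr and Jak1), beside 22.9% of all genes. Socs3 spanned 1.80 log2 units in wild type (3.47-fold, adjusted p = 1.1e-07) and 0.93 in the null (1.91-fold, adjusted p = 0.00683). Lifr spanned 1.27 in wild type (2.40-fold, adjusted p = 4.6e-06) and 1.30 in the null (2.46-fold, adjusted p = 0.000985).

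Osmr, Il6st and Jak1 spanned less and were past the threshold in both genotypes on their brightest probe sets. Osmr spanned 0.84 log2 units in wild type (adjusted p = 1.6e-07) and 0.48 in the null (adjusted p = 0.00101). Il6st spanned 0.83 (adjusted p = 2.4e-06) and 0.40 (adjusted p = 0.00382), and Jak1 spanned 0.42 (adjusted p = 0.000568) and 0.46 (adjusted p = 0.00612). With every probe set tested, the second Osmr probe set had an F test adjusted p of 0.000377 in wild type and 0.169 in the null. The dimmest Jak1 probe set passed in neither genotype (adjusted p = 0.211 in both). The second brightest passed in both (0.000555 and 0.0433), as did the other Il6st probe sets. Pim1 passed in neither genotype, with adjusted p = 0.905 in wild type and 0.0505 in the null.

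The wild type result rested on embryo 2. Without it, 1 of 8 member genes passed (Il6st, span 0.38, adjusted p = 0.00481), beside 15.1% of all genes. Socs3 then had an adjusted p of 0.0754, Osmr 0.335, Lifr 0.304 and Jak1 0.122. In the null, 4 to 7 of the member genes passed under each of 15 alternatives, beside 11.2% to 26.5% of all genes. With the filter at the 60th percentile 5 member genes were kept and 4 passed. Il6st did not pass without null embryo 1 (adjusted p = 0.0686).

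**Figure D3:**
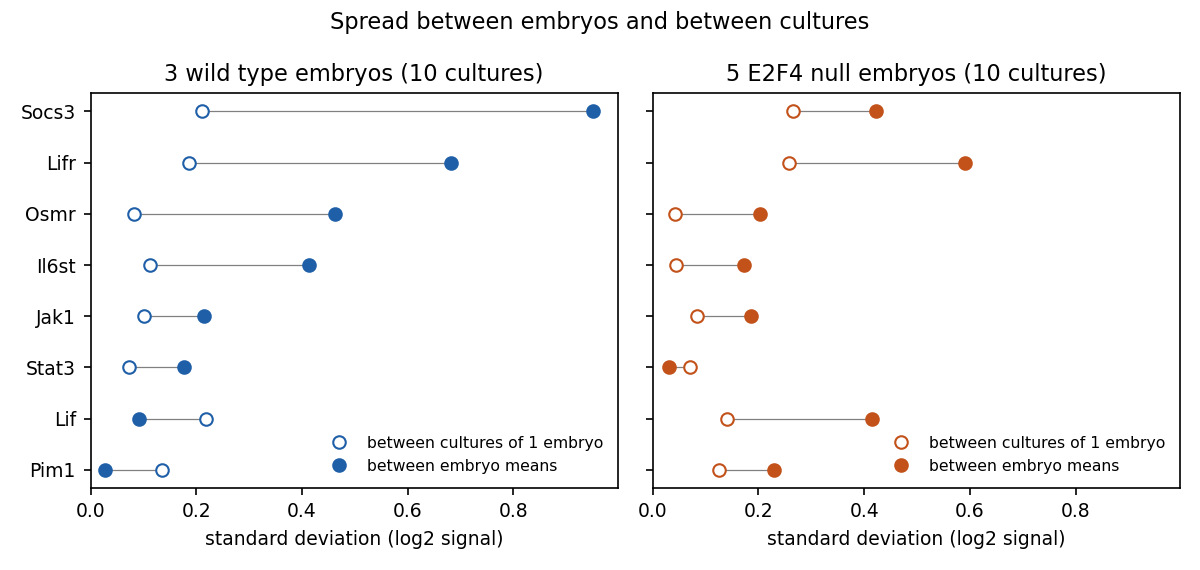
Standard deviation of log2 signal between embryo means (filled) and between cultures of an embryo (open) for the 8 member genes above the filter, in 3 wild type embryos (left) and 5 E2F4 null embryos (right). Socs3 has 0.95 between wild type embryo means and 0.21 between cultures; the order is turned for Pim1 and Lif in wild type and for Stat3 in the null.

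The receptor chains, Jak1 and Socs3 were lowest in the same 3 embryos, wild type 2, null 1 and null 2. This held for 5 of 8 member genes and for 13 of all 22 member probe sets, 1 of them the second brightest of Stat3, and the set of embryos was chosen after these values were seen. It was also the commonest set of lowest embryos on the array, with 884 genes (11.9%), ahead of the next at 484 genes (6.51%). Stat3 on its brightest probe set was lowest in null 1, null 4 and null 2, Lif in null 4, 5 and 3, and Pim1 in null 5, null 3 and wild type 3.

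**Figure D4:**
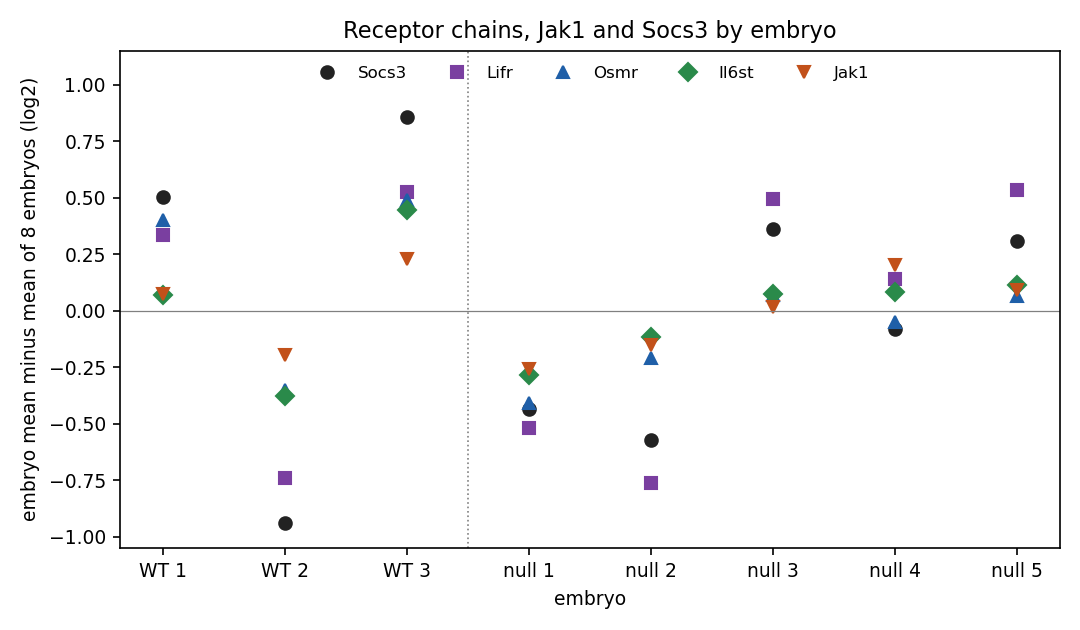
Embryo mean minus the mean of 8 embryos (log2 signal) for Socs3, Lifr, Osmr, Il6st and Jak1, with wild type embryos left and E2F4 null embryos right of the dotted line. All 5 genes lie below 0 in wild type 2, null 1 and null 2, where Socs3 has -0.94, -0.43 and -0.57.

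Mitosis genes moved along with this set. The mean deviation of 13 mitosis genes was -0.53 in wild type 2, -0.17 in null 1 and -0.13 in null 2, and between 0.01 and 0.24 in the other embryos. For 10 of these 13 genes the same 3 embryos were the lowest. The 11 fibroblast markers read -0.22, -0.21 and -0.02 in these embryos and 0.04 to 0.14 in the others, and 2 of the 11, Pdgfra and Prrx1, had the same lowest embryos. Without Pdgfra the fibroblast markers read -0.08, -0.07 and 0.06 there. The part of cell division and of fibroblast content in the receptor, Jak1 and Socs3 values was not tested, and in bulk cultures fewer cells of a type and less RNA per cell cannot be told apart.

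Macrophage markers did not follow the same embryos. Their mean deviation was 0.23 in wild type 2, -0.57 in null 1 and 0.05 in null 2, with the highest value of 0.81 in null 4. The mean deviation of the 2 epithelial markers above the filter, Krt18 and Krt19, was 0.33, 0.69 and 0.51 in these embryos. It was between -0.66 and -0.04 in the others. Krt19 alone did not follow the set, with 311 in null 5 and 294 in wild type 2. The other epithelial markers were under the filter. In wild type and null, Krt8 read 37.7 and 54.0, Krt14 25.5 and 20.2, Cdh1 12.1 and 10.5, and Epcam 6.35 and 5.16. The part of either cell type in the member values was not tested.

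**Figure D5:**
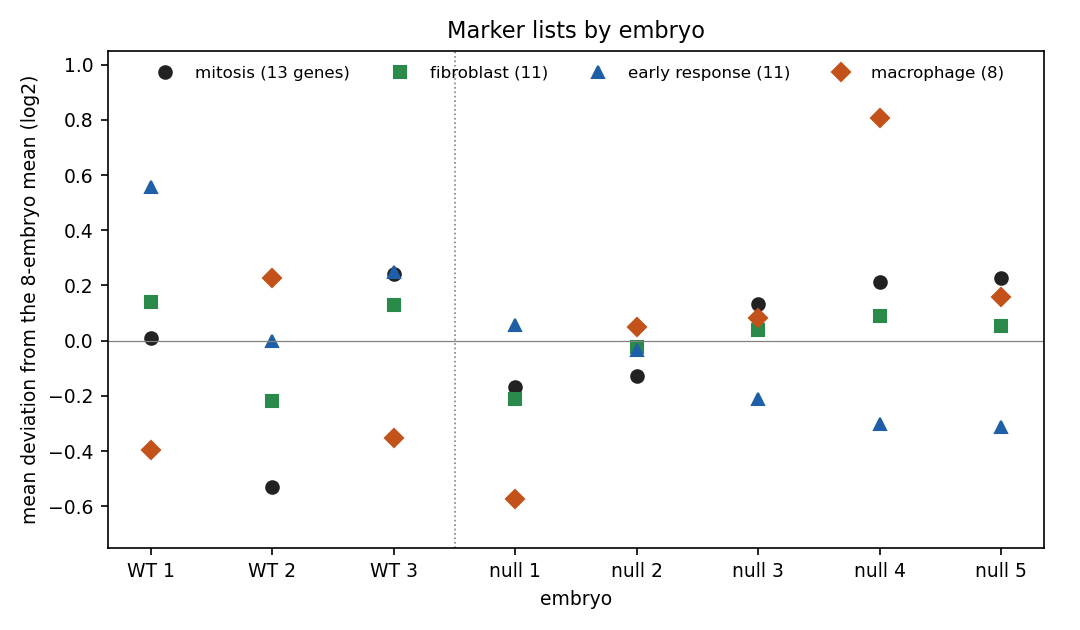
Mean deviation from the 8-embryo mean (log2 signal) of 4 gene lists in each embryo, with wild type embryos left and E2F4 null embryos right of the dotted line. Mitosis genes are lowest in wild type 2 (-0.53), early response genes are lowest in null 3, 4 and 5 (-0.21 to -0.31), and macrophage markers are highest in null 4 (0.81).

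Other genes of the pathway were taken from lists of ligands, receptors, kinases and STATs, inhibitors and targets. Of 61 listed genes, 53 had a probe set and 37 passed the filter, and 0 of the 37 were called between genotypes by limma, beside 0.0134% of all genes, which is 1 gene. At an unadjusted p under 0.05 there were 3 of the 37 and 647 of all genes. The difference was below 0 for 28 of the 37 (75.7%) with a median of -0.07, beside 51.0% and -0.003 over all genes.

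Of 4 further ligands on the array, 3 passed the filter, and none was called. Ctf1, which encodes cardiotrophin, differed by -0.14 (adjusted p = 0.838), Il11 by -0.08 (adjusted p = 0.949) and Clcf1 by -0.02 (adjusted p = 0.981). Il11 read 173, 133, 101, 70.3 and 69.9 in null embryos 1 to 5 and 122, 110 and 97.5 in wild type embryos. Of 6 other receptor genes on the array only Il10rb, a chain of the interleukin-10 receptor, passed the filter, at -0.08 (adjusted p = 0.892), and Il6ra, the IL-6 binding chain, was under it at 53.1 and 70.7.

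Among kinases and STATs, 5 of 6 differences were below 0 and none was called. Stat5a and Stat5b, which lie beside Stat3 on chromosome 11 and carry growth hormone and cytokine signals, differed by -0.27 (adjusted p = 0.861) and -0.23 (adjusted p = 0.686). Jak2, a kinase related to Jak1, differed by -0.18 (adjusted p = 0.617). Stat5a read 154, 91.1 and 301 in wild type and 88.4, 102, 157, 150 and 189 in null embryos, and so had the same lowest 3 embryos as Socs3. Unlike the brightest Stat3 probe set, it did not part by genotype. The second brightest Stat3 probe set had the same lowest 3 embryos as Stat5a.

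Among inhibitors, 8 of 12 differences were below 0. Socs5 and Cish, both of the SOCS family, differed by -0.22 (adjusted p = 0.729) and -0.21 (adjusted p = 0.714), and Pias1, which binds activated STATs, by -0.16 (adjusted p = 0.646).

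Among STAT3 targets, 11 of 15 differences were below 0 with a median of -0.07. Timp1, an inhibitor of matrix metalloproteinases, read 9347, 7490 and 9309 in wild type embryos. It read 7086, 7081, 5860, 5492 and 5578 in null embryos, all below wild type. The difference of -0.49 (adjusted p = 0.293) was not called, nor were Junb (-0.60, adjusted p = 0.456) and Fos (-0.54, adjusted p = 0.667), the AP-1 genes. With cultures as samples and embryo as a random block, limma called 80 of 7436 genes, beside 1 with embryo means. In that setting Timp1 had an adjusted p of 0.00243 and Junb of 0.0416. It takes a single correlation between cultures of an embryo for all genes. Timp1 and Junb differed between embryos of a genotype. Their F test adjusted p was 2.6e-05 and 1.2e-05 in wild type and 0.00391 and 0.000476 in the null. The part of the shared correlation in these calls was not tested.

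Of all genes outside the member list, 4 followed Stat3 most closely over the 8 embryo means, by Pearson correlation given as a description. They were Gli3 (0.985), Nqo1 (0.976), Angptl4 (0.971) and Dgat1 (0.970), each lower in all null embryos than in wild type. For Socs3 the closest were Bicc1 (0.978), Ganab (0.977), Dtymk (0.973) and Cand1 (0.968), each lowest in wild type 2, null 1 and null 2. These genes were picked as the highest of all by likeness to the brightest Stat3 and Socs3 probe sets. Their split by genotype or their lowest embryos therefore follow from the choice and are no further support. The second brightest Stat3 probe set did not have this split. The embryos also share the array, the scaling and the culture differences described above.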

How the data were processed

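RNA of 20 MEF cultures was measured on Affymetrix arrays. The deposited values are signal intensity per probe set, made by the authors with MAS5 per the submitters' processing notes (version not given in the sources used here), on a linear scale. Of 22690 probe sets, 64 are controls, 20380 list 1 gene symbol, 691 list several and 1555 are unlisted in the platform table, and 20351 matched RefSeq. Embryo and culture numbers were read from sample titles.

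Values were taken as log2(signal + 16), so log2 differences, spans and the folds given with spans include the 16. This understates the fold change of dim probe sets. The brightest probe set stood for its gene, and a low-signal filter at the 40th percentile of mean signal kept 7436 genes. Genotype (null minus wild type) was fitted on embryo means with limma 3.58.1 in R 4.3.3 and embryo differences over cultures within a genotype, both two-sided with Benjamini-Hochberg adjustment at 0.05. The fits were tested on simulated data. Named genes were the members, E2f4, the 3 pathway genes per list with the largest differences, and the 4 most like Stat3 and Socs3. Members and lists were chosen with earlier results of these data known. Alternatives changed the pseudocount, filter, scaling, probe sets, blocks and embryos. The number of arrays limits the precision.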

Additional observations from a re-analysis of the deposited data

How the results depend on the processing

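The genotype difference of Stat3 kept its sign under 21 of 21 alternatives, between -0.51 and -0.35. Leaving out 1 embryo can hardly move a difference by more than the pooled SD of embryo means within genotypes. The other 7 member genes above the filter stayed within that SD in 144 of 144, which therefore says little. Their sign was less stable: Lif and Osmr stayed below 0, while Socs3 reached 0.13, Il6st 0.13, Lifr 0.18 and Jak1 0.04 without wild type embryo 3, and Pim1 0.05 with the embryo number as a replicate block. Lifr was also above 0 without wild type 1, null 1 or null 2, Jak1 without null 1 and Pim1 without null 5. Il6 was not among these alternatives. The number of genes called between genotypes, 1, was 0 with every probe set and 0 with cultures 1 and 2 only, 80 with embryo as a random block, and from 0 to 11 with 1 embryo left out (11 without wild type 2). Same-numbered embryos correlated at 0.064, 0.63 and 0.45 and same-numbered cultures between -0.25 and 0.25. Differently numbered ones were not compared, so these values do not settle whether the numbers are pairs. The main fit did not use them as pairs. The culture number as a replicate block gave 38 genes and the embryo number as a replicate block gave 0. Of the 37 pathway genes, 0 were called, 2 with the random block (Junb and Timp1) and 1 with the culture number as a block (Timp1, -0.50, adjusted p = 0.0126). Member genes that passed between wild type embryos numbered 6, beside 50.1% of all genes. With 1 wild type embryo left out they numbered from 1 to 6, beside 15.1% to 45.6% of all genes. Of 226 tests of single member genes between embryos, 213 kept their call, 7 lost it and 6 gained it, the latter all Pim1 in the null. Lif, Lifr and Pim1 have no value with the filter at the 60th percentile. The array with the highest 18S control was left out as an alternative chosen after seeing the data, and it moved none of these calls. Il6 and the probe sets of Stat3, Lif, Lifr and Pim1 under the filter were limited by low signal.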
